A study of Mus musculus with 12 samples.

Results

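Nuclear genes of oxidative phosphorylation (OXPHOS) were followed in C2C12 myotubes that received STEM or horse serum. They were taken as the protein-coding genes whose symbols name a subunit of complexes I to V (Nduf, Sdh, Uqcr, Cyc1, Cox4 to Cox8 and Atp5), a rule that used no expression value. It found 95 listed genes, with 94 symbols, among the 55487 Ensembl genes of the count table. They comprised 38 subunits of complex I, 8 assembly factors of complex I whose symbols begin with Ndufaf, 4 subunits of complex II, 9 of complex III, 18 of complex IV and 18 of complex V. Positions are those of GRCm38. Of the 95, 89 passed the filter on low counts and were tested.

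C2C12 is a single line of mouse myoblasts that fuse into myotubes in medium with little serum. STEM denotes the factors, free of cells, that human embryonic stem cells secrete while they begin to differentiate. All cultures had been differentiated in 2% horse serum over 5 days before they received either 4% horse serum (libraries 1 to 6) or 4% STEM (libraries 7 to 12) for 24 h. STEM took the place of horse serum, so the addition of STEM and the removal of serum cannot be told apart. The labels do not say that libraries of a group came from separate cultures, and the p-values then measure the spread between these libraries only.

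Complexes I to IV of the inner mitochondrial membrane pass electrons from NADH and succinate to oxygen, and complexes I, III and IV pump protons as they do so. Complex V, the ATP synthase, uses the returning protons to make ATP. A small set of subunits of complexes I, III, IV and V is encoded by mitochondrial DNA, and the remaining subunits, with all of complex II, are encoded in the nucleus and imported. Skeletal muscle replaces some ubiquitous subunits of complex IV with isoforms that it shares with heart, among them Cox6a2, Cox7a1 and Cox8b.

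The libraries held between 13285472 and 24536264 counts, and the OXPHOS genes took 1.39 to 1.75% of them with horse serum and 1.59 to 1.72% with STEM. Levels are given as CPM, in which counts are divided by the library total after scaling by the trimmed mean of M-values (TMM). All 10 markers of differentiated myotubes were detected. Horse serum library 6 stood apart from the other 5 of its group, and the tests were run with it (12 libraries) and without it (11 libraries). Its summed CPM of the 10 myotube markers was 13308, against 20630 to 23020 in horse serum libraries 1 to 5 and 18239 to 23737 with STEM, and each of the 10 lay below its range in libraries 1 to 5. Although the sums overlapped, the mean log2 CPM of the 10 markers was 10.52 to 10.64 in libraries 1 to 5, 9.41 in library 6 and 10.18 to 10.48 with STEM. Of the 10, none rose and 2 fell with 12 libraries (20% called, against 36.4% of all tested genes). With 11 libraries none rose and 6 fell (60% called, against 50.8% of all tested genes), with a median log2 fold change of -0.21. In library 6 the summed CPM of 8 markers of unfused or cycling myoblasts was 986, against 620 to 898 in libraries 1 to 5 and 502 to 586 with STEM. These 8 did not move together. In library 6, 4 lay above their range in libraries 1 to 5, 2 below and 2 within. With STEM 2 rose and 4 fell in both comparisons (75% called). Their mean log2 CPM was 5.325 to 5.524 in libraries 1 to 5 and 5.898 in library 6. With STEM it was 5.332 to 5.504, inside the range of libraries 1 to 5. The 4 fibroblast markers summed to 12.5 to 17.2 CPM in libraries 1 to 5, 26.6 CPM in library 6 and 23.4 to 26.1 CPM with STEM. Of the 4, 2 had 3 counts or fewer throughout. In library 6, 1 of the other 2 lay above its range in libraries 1 to 5 and 1 below. The mean log2 CPM of these 2 was 2.43 to 2.92 in libraries 1 to 5, 2.77 in library 6 and 3.25 to 3.58 with STEM. With STEM 1 of the 2 rose with 12 libraries and both with 11. The 4 adipocyte markers summed to 11.3 to 15.5 CPM, 9.89 CPM and 6.26 to 7.60 CPM in the same order, with 1 of them at 0, and the 1 that was tested fell in both comparisons. The part of these cell type differences in the OXPHOS results was not tested, and in bulk RNA fewer cells of a type and less RNA per cell cannot be told apart.

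Between libraries of a group the OXPHOS genes were steady. The coefficient of variation of CPM had a median of 4.86% over the 89 genes in horse serum libraries 1 to 5 and 5.24% in the STEM libraries, but 12.9% in all 6 horse serum libraries. In library 6, 80 of the 89 genes lay below their range in libraries 1 to 5, with a median log2 difference of -0.44 over all 89. The median difference was -0.64 for complex III, -0.56 for complex IV, -0.49 for complex V, -0.43 for complex I, -0.25 for complex II and -0.02 for the complex I assembly factors. The lowest were the muscle isoforms Cox7a1 (-3.00), Cox8b (-1.95) and Cox6a2 (-1.51), followed by Ndufv3 (-1.15), a small accessory subunit of complex I. Only Ndufaf4 and Ndufaf7, both assembly factors, lay above the range of libraries 1 to 5.

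**Figure D1:**
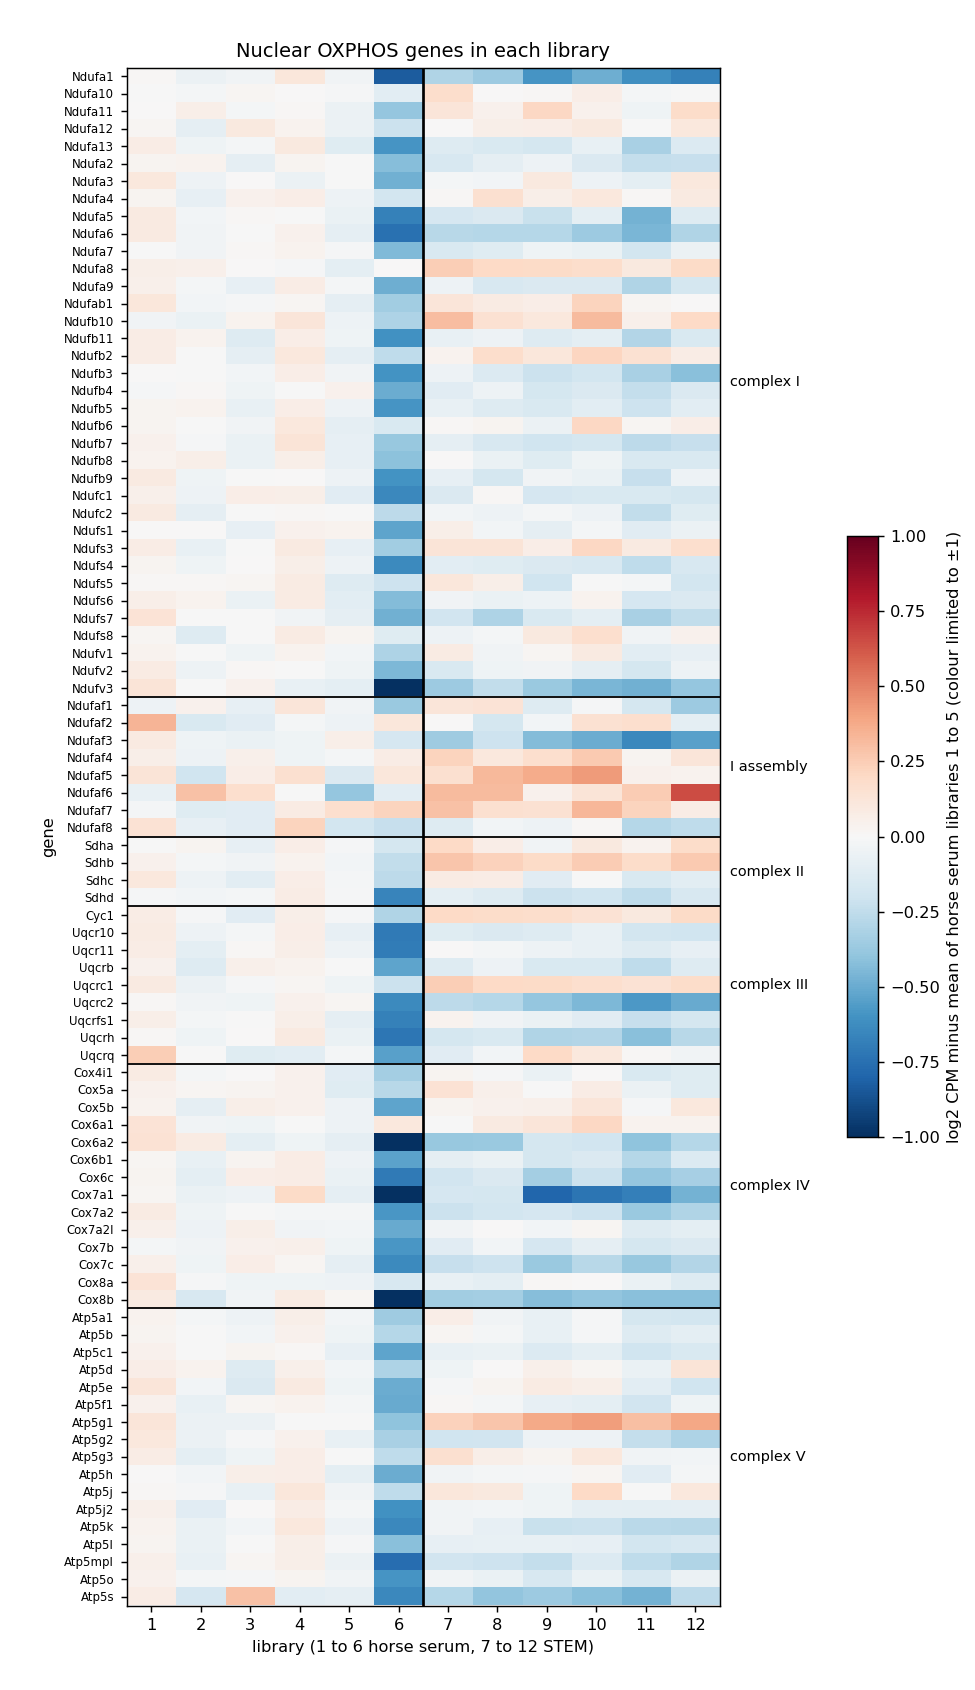
Log2 CPM of 88 of the 89 tested genes (rows, grouped by complex) in each of the 12 libraries (columns), as the difference from the gene's mean over horse serum libraries 1 to 5 and with the colour limited to 1 in either direction. Horse serum library 6 is the column in which 80 of these 88 genes lie below libraries 1 to 5, and in the STEM columns genes such as Atp5g1 and Sdhb lie above zero while more genes lie below it.

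With all 12 libraries, 11 of the 89 genes passed an adjusted p of 0.05 in edgeR's quasi-likelihood test. This is 12.4% of them, against 36.4% of all 14175 tested genes. There were 8 that rose with STEM (Atp5g1, Sdhb, Ndufb10, Uqcrc1, Cyc1, Ndufs3, Ndufa8 and Ndufb2) and 3 that fell (Ndufaf3, Ndufa1 and Uqcrc2), where 18.9% of all tested genes rose and 17.4% fell. The median log2 fold change of the 89 genes was -0.02, with a range of -0.41 to 0.39, against 0.01 over all tested genes, and 82 of the 89 changed by less than 1.2-fold in either direction. The CPM of the groups did not overlap for 6 genes (5 higher and 1 lower with STEM), against 17.2% of all tested genes.

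Without horse serum library 6, 49 of the 89 genes passed, or 55.1%, against 50.8% of 14267 tested genes. The 11 genes above passed again in the same direction. The other 38 comprised Ndufaf4, Ndufaf5 and Ndufaf7, which rose, and 35 genes that fell, so that 11 rose and 38 fell. Of all tested genes 26.3% rose and 24.5% fell. The median log2 fold change of the 89 genes was -0.07, the falls ranged from -0.09 to -0.50 and the rises from 0.13 to 0.33, and 75 genes changed by less than 1.2-fold. Groups did not overlap for 30 genes (5 higher and 25 lower), against 33.3% of all tested genes. With offsets for gene length and GC content, the same 11 libraries gave 19 rises and 22 falls, and with scaling by total counts 20 rises and 29 falls. The OXPHOS transcripts were short, with a median exonic length of 1718 bases against 4100 over all tested genes, and genes under 1500 bases, which include 39 members, had a median log2 fold change of -0.05 in these libraries. Of all genes under 1500 bases, 20.5% were called with 12 libraries and 32.2% with 11.

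By class, the share of tested genes called with 12 libraries was 13.5% in complex I, 12.5% among its assembly factors, 25% in complex II, 33.3% in complex III, 0% in complex IV and 5.88% in complex V, against 36.4% of all tested genes. With 11 libraries the shares were 56.8, 50, 50, 66.7, 57.1 and 47.1% in the same order, against 50.8%.

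**Figure D2:**
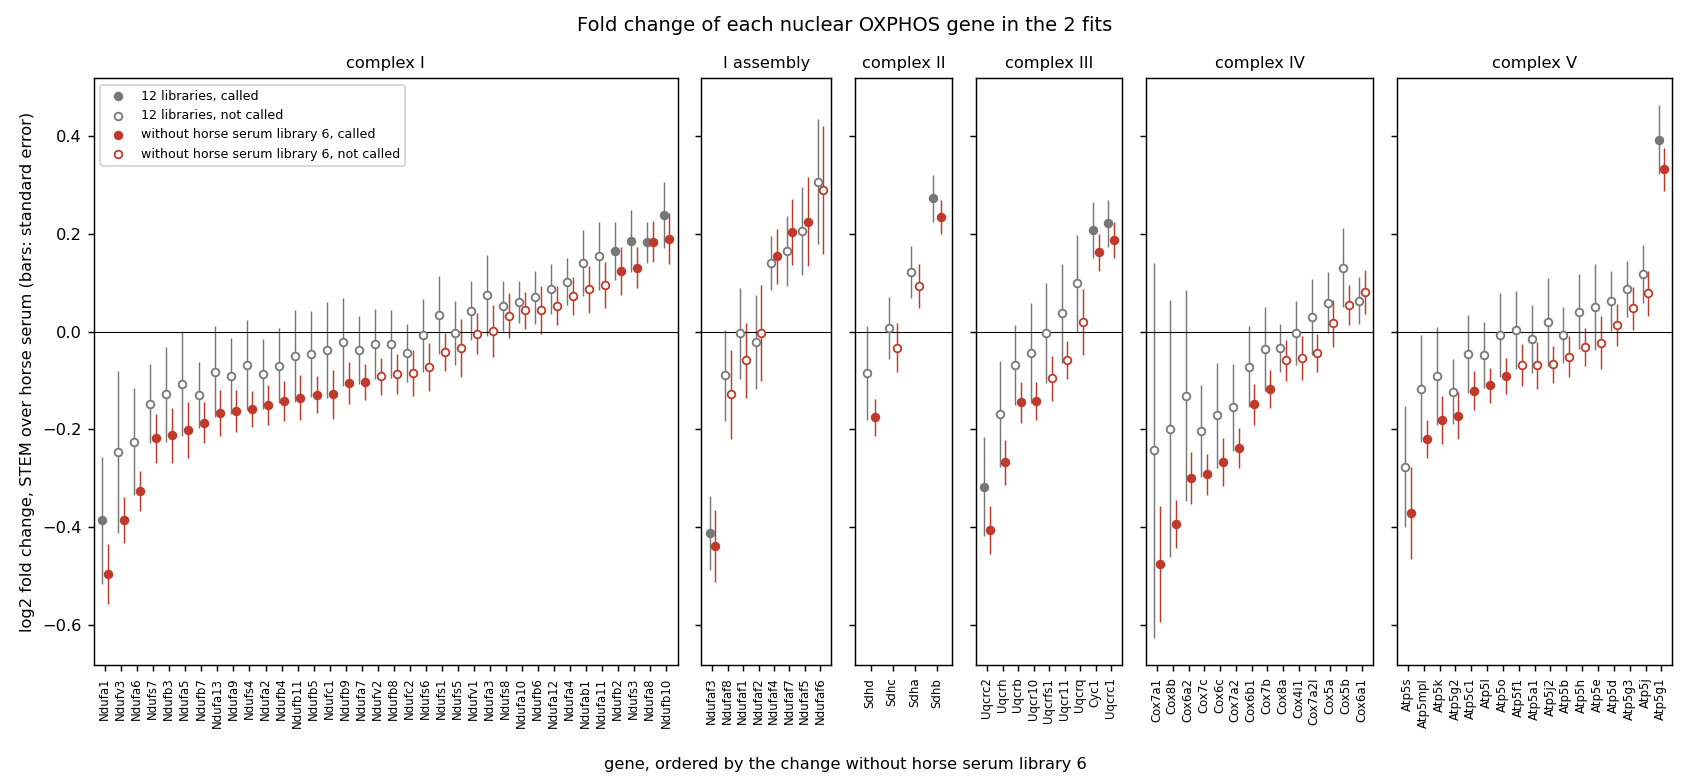
Log2 fold change (STEM over horse serum) with its standard error for 88 of the 89 genes by complex, in the 12-library comparison (grey) and without horse serum library 6 (red). Filled points passed the adjusted p of 0.05, 11 genes in grey and 49 in red, and the red bars are mostly shorter and the red points mostly lower.

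Complex I takes electrons from NADH. Its catalytic core carried a change in 1 of 7 nuclear genes with 12 libraries and in 2 with 11. Ndufs1, which carries iron-sulphur clusters, and Ndufv1, which holds the NADH site, were not called in either comparison, with log2 fold changes of 0.03 ± 0.08 (SE) and 0.04 ± 0.06 for 12 libraries and of -0.04 and -0.00 for 11. Among the core genes Ndufs3 rose, by 0.18 ± 0.06 with 12 libraries (adjusted p = 0.033) and by 0.13 ± 0.04 with 11 (adjusted p = 0.0131). With 12 libraries this call was lost without any 1 of horse serum libraries 2 and 5 or STEM libraries 7, 8, 10 and 12, with adjusted p up to 0.0672. Ndufs7 had a change of -0.15 with 12 libraries (adjusted p = 0.172) and of -0.22 with 11 (adjusted p = 0.00111). Both genes, like others outside the naming rule, were chosen after their values were seen.

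Among the 30 tested accessory subunits of complex I, 3 rose and 1 fell with 12 libraries, and 3 rose and 16 fell with 11. The 30 include Ndufa4, which is placed here by its symbol although its product is known as a subunit of complex IV, and which was not called (0.10 ± 0.05 and 0.07 ± 0.04). Ndufa1 (chrX:37187588-37191163), a small membrane subunit, had 64.6 to 72.6 CPM in horse serum libraries 1 to 5 (median 65.6), 37.8 CPM in library 6 and 42.0 to 54.4 CPM with STEM (median 46.2). All STEM libraries lay below libraries 1 to 5 and above library 6. Its log2 fold change was -0.39 ± 0.13 with 12 libraries (adjusted p = 0.032) and -0.50 ± 0.06 with 11 (adjusted p = 2.24e-06). With 12 libraries the call was lost when any 1 of horse serum libraries 1 to 5 or of STEM libraries 9 to 12 was left out, with adjusted p up to 0.0712.

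Ndufa8, a subunit with twin cysteine motifs, had 59.0 to 65.7 CPM in horse serum libraries 1 to 5, 63.5 CPM in library 6 and 67.7 to 74.9 CPM with STEM (median 72.2). Library 6 lay inside its group here, and the groups did not overlap. The log2 fold change was 0.18 ± 0.04 in both comparisons (adjusted p = 0.00304 and 0.00124). Ndufb10, of the membrane arm, had 69.2 to 78.6 CPM in libraries 1 to 5, 58.3 CPM in library 6 and 74.9 to 89.95 CPM with STEM, so that its groups overlapped, and it rose by 0.24 ± 0.07 (adjusted p = 0.0124) and by 0.19 ± 0.05 (adjusted p = 0.00507). Ndufb2 rose by 0.13 ± 0.05 with 11 libraries (adjusted p = 0.0403) and by 0.17 ± 0.06 with 12 (adjusted p = 0.0402). Both calls were lost with DESeq2, and without any 1 of horse serum libraries 2, 3 and 5 or STEM libraries 8 to 11. Leaving out 1 library gave adjusted p up to 0.114 from the 11 libraries and up to 0.0836 from the 12.

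Ndufa6 and Ndufv3 fell when library 6 was left out. Ndufa6, which binds the acyl carrier protein of complex I, had 214 to 242 CPM in libraries 1 to 5, 136 CPM in library 6 and 166 to 188 CPM with STEM, for a log2 fold change of -0.33 ± 0.04 (adjusted p = 2.76e-06). Ndufv3 had 148 to 173 CPM, 71.4 CPM and 114 to 133 CPM in the same order, for -0.39 ± 0.05 (adjusted p = 1.82e-06). In both genes library 6 was the lowest of all 12 libraries, and with it included the changes were -0.23 ± 0.11 (adjusted p = 0.125) and -0.25 ± 0.17 (adjusted p = 0.272). Ndufb9, which had the highest level per length of complex I, had a change of -0.02 ± 0.09 with 12 libraries (adjusted p = 0.874) and fell by 0.11 on the log2 scale with 11 (adjusted p = 0.0453), a call lost without any 1 of horse serum libraries 1 to 4 or STEM libraries 8 and 11, with adjusted p up to 0.132. With offsets for length and GC content its change with 11 libraries was -0.07 (adjusted p = 0.171). Ndufa4l2, a paralogue of Ndufa4, had at most 15 counts in any library and was not tested.

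The 8 Ndufaf assembly factors, which build complex I and are not part of it, had a lower median level than the subunits. It was 6.83 CPM per kb of exon in horse serum libraries 1 to 5, against 65.2 CPM per kb for the subunits of complex I. The classes overlapped, since the subunits Ndufb2 (10.3 CPM per kb) and Ndufab1 (9.68 CPM per kb) lay below Ndufaf1 (20.6 CPM per kb), Ndufaf8 (14.1 CPM per kb) and Ndufaf3 (11.3 CPM per kb). Ndufaf3 (chr9:108565537-108567434), which acts with Ndufaf4 in early assembly, had 19.6 to 21.9 CPM in libraries 1 to 5, 18.3 CPM in library 6 and 13.2 to 17.8 CPM with STEM (median 14.9). Every STEM library lay below every horse serum library. It fell by 0.41 on the log2 scale (SE 0.08, adjusted p = 0.000696) with 12 libraries and by 0.44 (SE 0.07, adjusted p = 6.65e-05) with 11, the only OXPHOS gene that fell without overlap in both. Ndufaf5, which modifies an arginine of Ndufs7, had 11.65 to 14.9 CPM in libraries 1 to 5, 14.5 CPM in library 6 and 13.7 to 17.9 CPM with STEM. Its change was 0.21 ± 0.09 with 12 libraries (adjusted p = 0.0877), and the call at 0.23 ± 0.09 with 11 (adjusted p = 0.0449) was lost without any 1 of horse serum libraries 2, 3 and 5 or STEM libraries 8, 9 and 10, with adjusted p up to 0.126. Ndufaf4 rose by 0.15 with 11 libraries (adjusted p = 0.0274). That call was lost without any 1 of horse serum libraries 2, 4 and 5 or STEM libraries 7, 9 and 10, with adjusted p up to 0.0760. Ndufaf7 rose by 0.20 with 11 libraries (adjusted p = 0.0164), a call lost without horse serum library 2 or 3, with adjusted p up to 0.0526. Ndufaf1, which works with the membrane part, was not called (-0.00 ± 0.09 and -0.06 ± 0.08).

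Complex II oxidises succinate and belongs to the tricarboxylic acid cycle as well. Its 4 genes did not move together. Sdhb (chr4:140961203-140979193), the iron-sulphur subunit, had 155 to 163 CPM in horse serum libraries 1 to 5 (median 156), 134 CPM in library 6 and 180 to 193 CPM with STEM (median 187). All STEM libraries lay above all horse serum libraries. Its log2 fold change was 0.27 ± 0.05 with 12 libraries (adjusted p = 0.000545) and 0.23 ± 0.03 with 11 (adjusted p = 1.42e-05). Sdhd, a membrane anchor, had 226 to 243 CPM in libraries 1 to 5, 146 CPM in library 6 and 193 to 216 CPM with STEM, and its change was -0.08 ± 0.10 with 12 libraries (adjusted p = 0.52) and -0.18 ± 0.04 with 11 (adjusted p = 0.000596), the latter -0.08 (adjusted p = 0.0879) with offsets for length and GC content. Sdha, the flavoprotein that binds succinate, was not called (0.12 ± 0.05, adjusted p = 0.084, and 0.09 ± 0.04, adjusted p = 0.0868), nor was Sdhc, the other anchor (0.01 ± 0.06 and -0.03 ± 0.05).

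Complex III passes electrons from quinol to cytochrome c. Here 2 of 9 genes rose and 1 fell with 12 libraries, and 2 rose and 4 fell with 11. Cyc1, the haem-bearing cytochrome c1, had 165 to 187 CPM in libraries 1 to 5 (median 177), 145 CPM in library 6 and 190 to 204 CPM with STEM (median 201). Uqcrc1 (chr9:108936633-108949623), a core protein on the matrix side, had 228 to 251 CPM, 204 CPM and 262 to 281 CPM in the same order. Both genes were higher in every STEM library than in any horse serum library. Cyc1 rose by 0.21 ± 0.06 (adjusted p = 0.00972) and by 0.16 ± 0.04 (adjusted p = 0.00152), and Uqcrc1 by 0.22 ± 0.05 (adjusted p = 0.00223) and by 0.19 ± 0.04 (adjusted p = 0.000276), for 12 and 11 libraries.

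Uqcrc2 (chr7:120635176-120659524) encodes the partner with which Uqcrc1 forms the core of complex III, and it moved in the opposite direction. It had 251 to 267 CPM in horse serum libraries 1 to 5 (median 261), 166 CPM in library 6 and 173 to 216 CPM with STEM (median 194). Libraries 1 to 5 lay above all STEM libraries, and library 6 lay below them. The log2 fold change was -0.32 ± 0.10 with 12 libraries (adjusted p = 0.0239) and -0.41 ± 0.05 with 11 (adjusted p = 1.67e-06). With 12 libraries the call was lost without any 1 of horse serum libraries 1, 4 and 5 or STEM libraries 11 and 12, with adjusted p up to 0.0554. Exons of Pdzd9 on the other strand cover 19.8% of its exonic bases, and whether the counting used strand is not given in the sources used here. The Rieske protein gene Uqcrfs1 was not called (-0.00 ± 0.10 and -0.10 ± 0.05), nor was Uqcr11, a small subunit (0.04 ± 0.10 and -0.06 ± 0.04).

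**Figure D3:**
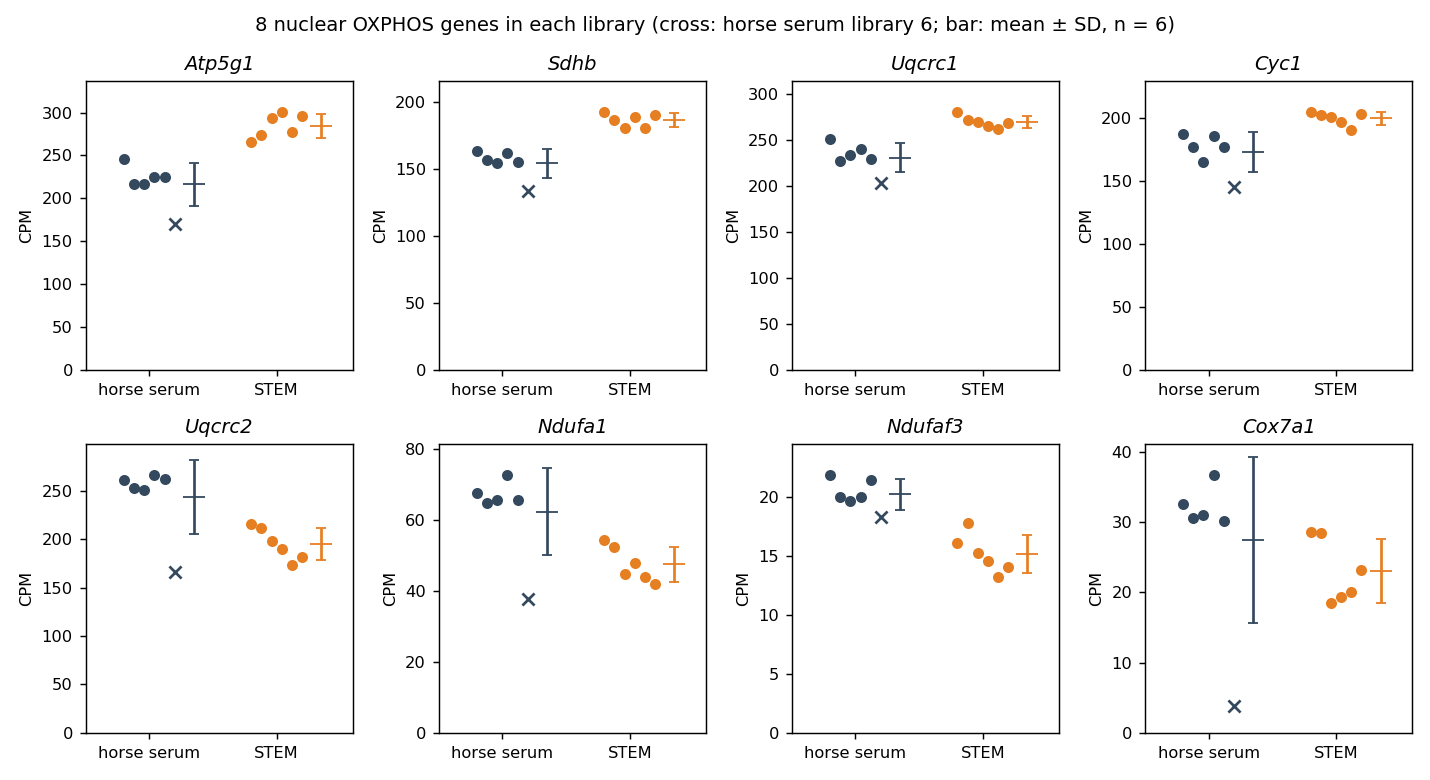
CPM of 8 OXPHOS genes in each library, with the mean ± SD of 6 libraries per group beside the points and a cross for horse serum library 6. Atp5g1, Sdhb, Uqcrc1 and Cyc1 are higher in every STEM library, Ndufaf3 is lower in every STEM library, and for Uqcrc2, Ndufa1 and Cox7a1 the cross lies below all STEM points.

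Complex IV reduces oxygen. None of its 14 tested genes was called with 12 libraries by edgeR at an adjusted p of 0.05, and DESeq2 and limma-voom called 0 each. An unadjusted p under 0.05 was reached by 1, Cox7c (log2 fold change -0.20 ± 0.09, and -0.29 ± 0.04 with 11 libraries). Without library 6, none rose and 8 fell, with a median of -0.13 for the 14. With offsets for length and GC content this median was -0.05, and the call of Cox7c was lost (adjusted p = 0.0799). The main subunit isoform Cox4i1 was not called in either comparison (-0.00 ± 0.07 and -0.05 ± 0.05). Its hypoxia-linked counterpart Cox4i2 had at most 2 counts in a library, Cox6b2 and Cox7b2, isoforms known from testis, at most 3 counts, and Cox8c, another testis isoform, had 0 counts in all libraries, so that no ratio to a partner was formed for these. Cox6b1, which lies between the monomers of the complex IV dimer, had a change of -0.07 ± 0.08 (adjusted p = 0.524) and of -0.15 ± 0.04 (adjusted p = 0.00603), the latter -0.05 (adjusted p = 0.275) with offsets for length and GC content. Cox7a2l, a factor of respiratory supercomplexes, was not called (0.03 ± 0.08 and -0.04 ± 0.04).

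The muscle isoforms of complex IV had the widest spread of all tested OXPHOS genes over the 6 horse serum libraries, with coefficients of variation of 42.9% for Cox7a1, 35.3% for Cox8b and 30.8% for Cox6a2. This rested on library 6, since in libraries 1 to 5 they had 8.35, 6.80 and 7.71%, and Ndufaf6 (17.3%) and Ndufaf2 (14.6%) varied most. With STEM the values were 19.7% for Cox7a1, 2.72% for Cox8b and 6.94% for Cox6a2. Cox6a2 had 93.1 to 111 CPM in horse serum libraries 1 to 5 (median 97.1), 35.003 CPM in library 6 and 75.7 to 88.6 CPM with STEM (median 79.7). Cox7a1 had 30.1 to 36.7 CPM, 3.89 CPM and 18.5 to 28.5 CPM in the same order, and Cox8b 52.3 to 62.0 CPM, 15.02 CPM and 43.4 to 46.2 CPM. For all 3 genes the STEM libraries lay below horse serum libraries 1 to 5 and above library 6. The sum of the 3 was 181 to 205 CPM in libraries 1 to 5, 53.9 CPM in library 6 and 139 to 152 CPM with STEM.

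With 12 libraries none of the 3 was called (Cox6a2 -0.13 ± 0.22, Cox7a1 -0.24 ± 0.38 and Cox8b -0.20 ± 0.26 on the log2 scale). With 11 libraries all 3 fell, with log2 fold changes of -0.30 ± 0.05 (adjusted p = 0.000134), -0.48 ± 0.12 (adjusted p = 0.00472) and -0.39 ± 0.05 (adjusted p = 2.01e-06). Their ubiquitous partners Cox6a1 (0.08 ± 0.04, adjusted p = 0.135) and Cox8a (-0.06 ± 0.04, adjusted p = 0.249) were not called with 11 libraries, while Cox7a2 fell (-0.24 ± 0.04, adjusted p = 9e-05). In the same 11 libraries Cox6a1 was called higher with offsets for length and GC content (0.15, adjusted p = 0.00335). It was also called higher with scaling by total counts (0.12, adjusted p = 0.0230). With 12 libraries the 3 partners stood at 0.06 ± 0.05, -0.03 ± 0.05 and -0.15 ± 0.09, and none was called.

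The ratio of muscle to ubiquitous isoform was compared directly in each library, for 3 pairs. With 12 libraries the differences in log2 ratio were -0.11 for Cox6a2 over Cox6a1, 0.14 for Cox7a1 over Cox7a2 and -0.03 for Cox8b over Cox8a, with two-sided exact permutation p = 0.868, 0.959 and 0.991 (n = 6 and 6). With 5 against 6 libraries the log2 ratio of Cox6a2 to Cox6a1 went from -0.55 ± 0.07 (SD) to -0.93 ± 0.06 and that of Cox8b to Cox8a from -1.96 ± 0.10 to -2.29 ± 0.08. Neither overlapped between the groups, and the exact permutation p was 0.00216 for each, the smallest that 462 splits allow, or 0.00325 adjusted over the 3 pairs. The ratio of Cox7a1 to Cox7a2 went from -2.65 ± 0.12 to -2.91 ± 0.28 (exact permutation p = 0.0931, adjusted 0.0931). Here the groups overlapped (-2.72 to -2.44 with horse serum and -3.27 to -2.60 with STEM), and STEM libraries 7 and 8 lay inside the horse serum range. In library 6 the 3 ratios were -2.16, -5.07 and -3.74.

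**Figure D4:**
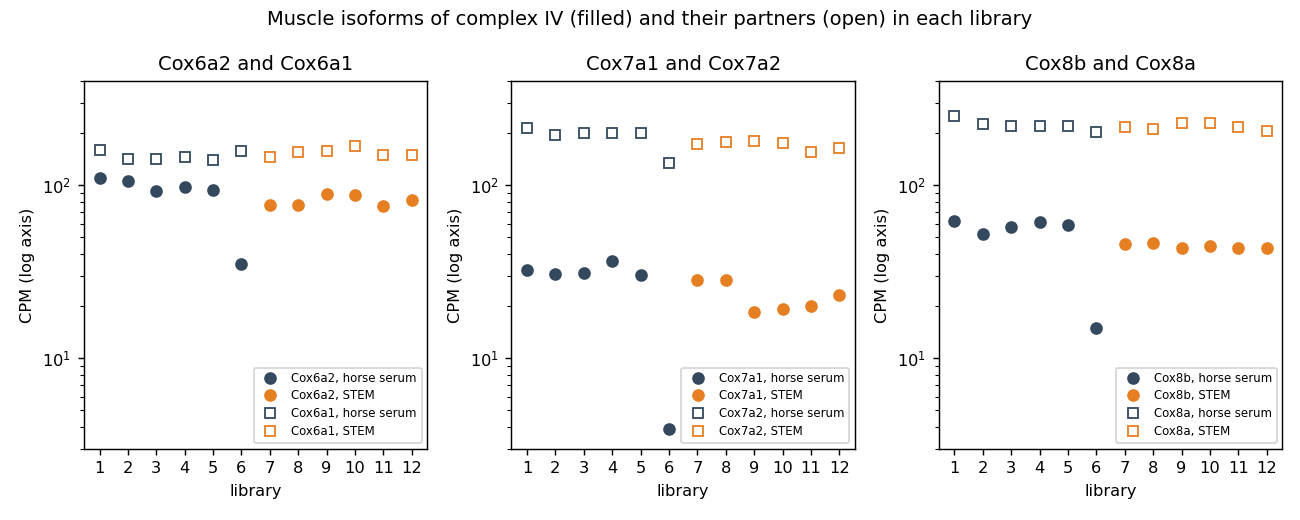
CPM (log axis) of the muscle isoforms Cox6a2, Cox7a1 and Cox8b (filled) and of their ubiquitous partners (open) in horse serum libraries 1 to 6 and STEM libraries 7 to 12. Library 6 has 35.003, 3.89 and 15.02 CPM of the muscle isoforms, below all other libraries, while Cox6a1 and Cox8a differ little among the 12.

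Complex V makes ATP. Its catalytic alpha and beta subunits had the highest levels per length of all OXPHOS genes, with 415 ± 13.2 (SD, n = 5) CPM per kb of exon for Atp5a1 and 493 ± 12.1 for Atp5b in horse serum libraries 1 to 5, and neither was called (Atp5a1 -0.02 ± 0.07 and -0.07 ± 0.05, Atp5b -0.01 ± 0.06 and -0.05 ± 0.04 on the log2 scale). With 12 libraries 1 of 17 tested genes of the complex rose and none fell, and with 11 libraries 1 rose and 7 fell. Atp5s, known as coupling factor B and expressed at a low level, had 9.03 to 12.5 CPM in libraries 1 to 5, 6.51 CPM in library 6 and 7.35 to 8.49 CPM with STEM, for -0.28 ± 0.12 (adjusted p = 0.0937) and -0.37 ± 0.09 (adjusted p = 0.00281). Atp5o, part of the peripheral stalk, had 2 listings. The second one, which overlaps the first, had 0 counts in all libraries, and the first had a change of -0.01 ± 0.09 with 12 libraries and of -0.09 ± 0.04 with 11 (adjusted p = 0.0481), a call lost without any 1 of horse serum libraries 1 to 5 or STEM libraries 8, 9, 11 and 12, with adjusted p up to 0.117. With offsets for length and GC content the change with 11 libraries was -0.02 (adjusted p = 0.71).

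Atp5g1 (chr11:96068852-96075670, minus strand) showed the largest rise among the called OXPHOS genes in both comparisons. It had 217 to 246 CPM in horse serum libraries 1 to 5 (median 225), 170 CPM in library 6 and 265 to 301 CPM with STEM (median 286), and every STEM library lay above every horse serum library. The log2 fold change was 0.39 ± 0.07 with 12 libraries (adjusted p = 0.000565) and 0.33 ± 0.04 with 11 (adjusted p = 4.03e-06). Atp5g1, Atp5g2 and Atp5g3 encode the same mature subunit c, the protein of the rotor ring, behind different import sequences, and the other 2 were looked at after their values were seen. Atp5g2 was not called with 12 libraries (-0.12 ± 0.07, adjusted p = 0.169) and fell with 11 (-0.17 ± 0.05, adjusted p = 0.00604), and Atp5g3 was called in neither (0.09 ± 0.06 and 0.05 ± 0.04).

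Of the summed CPM of the 3 genes, Atp5g1 made up 32.3 to 34.7% in the 6 horse serum libraries and 37.7 to 42.9% in the STEM libraries, and Atp5g2 28.5 to 30.1% and 22.9 to 25.9%. The share of Atp5g3 overlapped between the groups (35.7 to 38.1% and 33.6 to 38.2%). These shares are a description and were not tested. Library 6 lay at 32.3, 29.6 and 38.1%. Its share of Atp5g2 lay within the range of libraries 1 to 5, that of Atp5g1 below it (33.1 to 34.7%) and that of Atp5g3 above it (35.7 to 37.2%). The sum of 528 CPM in library 6 was the lowest of the 12 libraries (628 to 708 CPM in libraries 1 to 5 and 677 to 747 CPM with STEM).

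The sequences before the start sites of these 3 genes are shown because one protein is drawn from 3 separate promoters, beside that of Sdhb, which rose, and of Cox8b, which fell without library 6. Each run holds the 250 bases before the start of the gene in RefSeq, 5′ to 3′ on its strand, on GRCm38.p6, and capitals mark a match to a motif described after the sequences.
Atp5g1, chr11:96075632-96075881, minus strand: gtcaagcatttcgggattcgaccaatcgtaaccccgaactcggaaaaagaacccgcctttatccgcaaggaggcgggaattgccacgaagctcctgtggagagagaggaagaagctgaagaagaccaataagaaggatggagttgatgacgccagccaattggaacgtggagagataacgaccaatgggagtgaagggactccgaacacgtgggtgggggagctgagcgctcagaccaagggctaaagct
Atp5g2, chr15:102671048-102671297, minus strand: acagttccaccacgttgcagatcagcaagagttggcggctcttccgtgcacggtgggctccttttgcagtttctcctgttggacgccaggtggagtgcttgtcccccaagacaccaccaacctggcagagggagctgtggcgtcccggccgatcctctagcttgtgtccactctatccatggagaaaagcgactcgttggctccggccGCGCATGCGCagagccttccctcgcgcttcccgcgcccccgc
Atp5g3, chr2:73911327-73911576, minus strand: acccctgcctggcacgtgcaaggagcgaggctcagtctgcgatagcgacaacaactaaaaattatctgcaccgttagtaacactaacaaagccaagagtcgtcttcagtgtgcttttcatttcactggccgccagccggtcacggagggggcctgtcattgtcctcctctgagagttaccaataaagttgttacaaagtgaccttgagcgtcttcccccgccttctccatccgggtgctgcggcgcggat
Sdhb, chr4:140961021-140961270, plus strand: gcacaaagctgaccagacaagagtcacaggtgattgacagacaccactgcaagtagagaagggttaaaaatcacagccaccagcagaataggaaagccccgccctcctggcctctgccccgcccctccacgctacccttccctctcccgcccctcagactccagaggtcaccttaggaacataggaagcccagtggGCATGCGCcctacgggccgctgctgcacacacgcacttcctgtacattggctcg
Cox8b, chr7:140900447-140900696, minus strand: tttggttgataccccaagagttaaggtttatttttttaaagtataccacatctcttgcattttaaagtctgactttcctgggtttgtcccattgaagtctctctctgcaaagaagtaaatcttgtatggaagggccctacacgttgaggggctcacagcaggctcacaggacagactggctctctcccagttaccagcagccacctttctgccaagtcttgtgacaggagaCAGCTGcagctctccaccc
Motifs were searched on both strands from 250 bases before to 50 bases after the start in 79 windows of the 74 OXPHOS symbols with an entry, and in all 32851 windows. Atp5g2 carried overlapping copies of the NRF1 core (GCGCATGC, capitals) and Sdhb 1 copy, read on the other strand, while Cox8b carried an E-box (CAGCTG, capitals), the core bound by myogenic factors. In GENCODE the Sdhb gene begins at chr4:140961203, so its NRF1 match lies inside the gene there. After the RefSeq start, outside the printed bases, Sdhb also matched the ETS core and Cox8b another E-box. The window of Cox7a1, another muscle isoform, matched none of the motifs. Atp5g1 and Atp5g3 matched none of the motifs in the 250 bases printed. Over all OXPHOS windows the NRF1 core was present in 15.2%, against 2.71% of all windows. The ETS core bound by GABP (CCGGAAG) was present in 22.8% against 8.86%, and the YY1 core (AAGATGGC) in 12.7% against 2.75%. The E-box was present in 7.59% against 16.3%, and a MEF2 site in 0 of the 79 windows against 1.86% of all windows. Of 33 windows of genes that fell with 11 libraries, the E-box was in 1, that of Cox8b, the NRF1 core in 4, the ETS core in 6 and the YY1 core in 4. Of 7 windows of genes that rose with 12 libraries, the numbers were 2, 3, 2 and 0 in the same order. A match is a description of letters, and no test was run between motifs and fold changes.

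Levels per length ordered the classes in the same way in both groups of libraries. In horse serum libraries 1 to 5 the median was 198 CPM per kb of exon for complex IV, 138 for complex III, 110 for complex V, 66.2 for complex II and 65.2 for complex I. Behind Atp5b and Atp5a1 came Uqcr11 of complex III (369 ± 18.1 CPM per kb), Cox8a of complex IV (367 ± 20.8) and Cox6b1 of complex IV (353 ± 14.7), which did not differ from each other beyond their SD, and then Ndufb9 of complex I (291 ± 11.001). Sdhd led complex II with 187 ± 5.56 CPM per kb. With the length of the longest transcript in place of all exons, the mean of Atp5b over all 6 horse serum libraries was 1058 rather than 478 CPM per kb, so these levels depend on the length used.

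**Figure D5:**
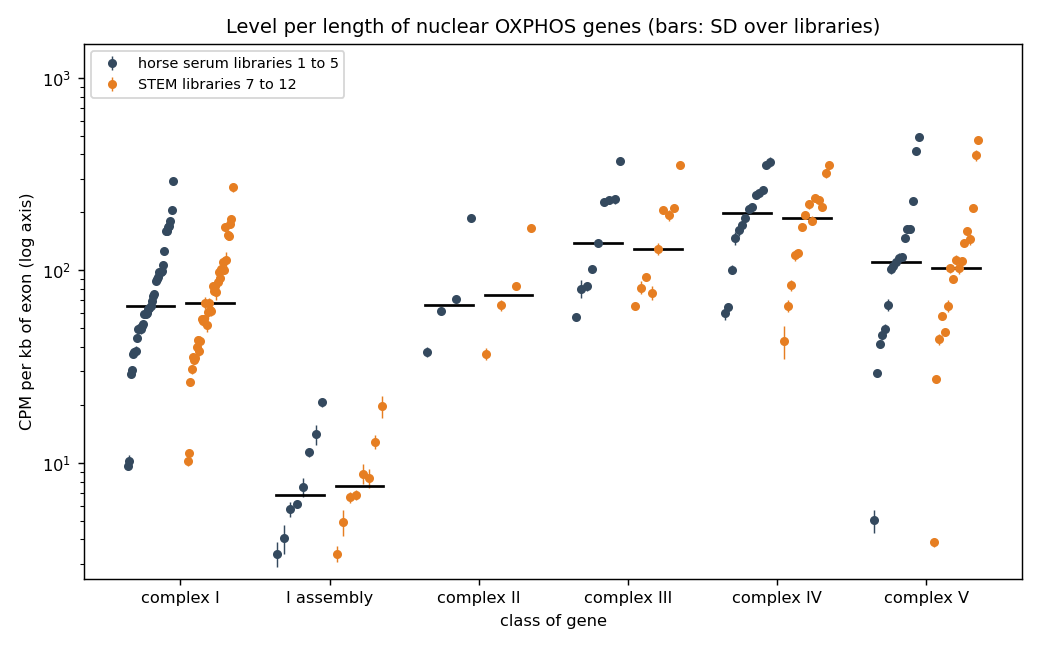
Level of each tested gene as CPM per kb of exon (log axis) by class, as the mean with its SD over horse serum libraries 1 to 5 (dark) or STEM libraries 7 to 12 (orange), with a black line at the class median. Assembly factors have the lowest median (6.83) and Atp5b highest (493), and the classes keep their places with STEM.

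Genes around the complexes are given for comparison from lists chosen for their role. Of 38 assembly factors outside the Ndufaf group, 14 rose and 3 fell with 12 libraries (median 0.06), and 15 rose and 7 fell with 11. These are 44.7% and 57.9% called, against 36.4% and 50.8% of all tested genes. Among them Uqcc3, which assists complex III, fell by 0.87 on the log2 scale with 12 libraries (SE 0.12, adjusted p = 4.92e-05) and by 0.91 with 11 (SE 0.11), from 9.17 ± 1.36 CPM (SD, n = 6) to 5.00 ± 0.61 CPM, and Coa5 of complex IV rose by 0.28 (SE 0.04, adjusted p = 8.24e-05) and by 0.27 (SE 0.04). Of 15 tested genes for cytochrome c, coenzyme Q synthesis and related carriers, 4 rose and 1 fell with 12 libraries (33.3% called) and 4 rose and 4 fell with 11 (53.3%). Cycs, the mobile cytochrome c between complexes III and IV, rose from 119 ± 12.4 CPM to 143 ± 6.18 CPM (log2 fold change 0.26 ± 0.06, adjusted p = 0.00506, and 0.21 ± 0.04 with 11 libraries), and Pdss1, which makes the tail of coenzyme Q, rose by 0.47 ± 0.11 (adjusted p = 0.00441) and by 0.57 ± 0.10 with 11.

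Of 17 genes of the tricarboxylic acid cycle and pyruvate dehydrogenase 4 rose and 3 fell with 12 libraries (41.2% called) and 4 rose and 6 fell with 11 (58.8%). Idh2 and Idh3a, 2 of the listed genes for isocitrate dehydrogenases, changed in opposite directions. Idh2 stood at -0.41 ± 0.05 (adjusted p = 2.39e-05) and Idh3a at 0.43 ± 0.07 (adjusted p = 0.000147), and with 11 libraries at -0.42 ± 0.05 and 0.39 ± 0.05. Of 9 carriers and porins 4 rose and none fell with 12 libraries (44.4% called), and 5 rose and 2 fell with 11 (77.8%). Their log2 fold changes ranged from -1.39 to 0.35 with 12 libraries and from -1.64 to 0.44 with 11. Slc25a3, the phosphate carrier that feeds ATP synthase, rose from 338 ± 15.5 CPM to 415 ± 13.01 CPM (0.30 ± 0.04, adjusted p = 0.000104, and 0.28 ± 0.04 with 11 libraries). Of 78 genes of the mitochondrial ribosome 20 rose and 5 fell with 12 libraries (median 0.11), and 26 rose and 11 fell with 11. These are 32.1% and 47.4% called, below the shares of all tested genes.

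Of 15 tested regulators 4 rose and 2 fell in both comparisons (40% called). Of all tested genes 36.4% were called with 12 libraries and 50.8% with 11. The log2 fold changes of the regulators ranged from -0.347 to 0.775 with 12 libraries and from -0.582 to 1.003 with 11. Esrra, a nuclear receptor that activates OXPHOS genes, rose by 0.27 ± 0.06 (adjusted p = 0.00223) and by 0.24 ± 0.05 with 11 libraries, and Gabpa, the subunit of GABP that binds DNA, fell by 0.21 (SE 0.05, adjusted p = 0.00313), and by 0.21 (SE 0.05) with 11. Of the 13 subunits encoded by mitochondrial DNA 12 were tested. None rose and 2 fell with 12 libraries, mt-Co1 of complex IV (-0.38 ± 0.10, adjusted p = 0.0109) and mt-Nd6 of complex I (-0.55 ± 0.12, adjusted p = 0.00235), and 1 rose and 3 fell with 11 (16.7% and 33.3% called). With 11 libraries mt-Co1 stood at -0.48 ± 0.04 and mt-Nd6 at -0.61 ± 0.11. The 13 summed to 19001 to 20072 CPM in horse serum libraries 1 to 5, 12252 CPM in library 6 and 13407 to 15017 CPM with STEM, and mt-Co1 alone, at 17261 ± 2999 CPM (SD, n = 6) in the horse serum libraries and 13281 ± 575 CPM in the STEM libraries, made up most of that sum.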

How the data were processed

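RNA sequencing libraries of C2C12 myotubes were assigned to 4% STEM (6 libraries) or 4% horse serum (6 libraries) by the sample labels. The authors deposited raw counts of reads per Ensembl gene on GRCm38 from stranded, paired, ribosomal RNA-depleted total RNA, without normalization. The submitters' processing notes name STAR 2.7.3a, featureCounts 1.6.3 and DESeq2 1.26.0, and the annotation release and the strand setting of the counting are not given in the sources used here. Of the 55487 listed genes, 55141 were matched to GENCODE for biotype, symbol and exon length, and 0.0358% of counts lay on unmatched ones. A further 13 listings whose symbols match the rule are not protein-coding (12 of them pseudogenes, with at most 0.0229% of the counts of the OXPHOS genes) and were left out.

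The counts were tested with edgeR 4.0.16 in R 4.3.3 (quasi-likelihood test, TMM scaling, filterByExpr) across all genes, with p-values adjusted by the Benjamini-Hochberg method and genes called at 0.05 or less. Standard errors of log2 fold changes were derived from the F statistic. All 12 libraries were used, and then 11 without horse serum library 6. Isoform ratios were differences of log2 CPM with a prior count of 2, compared by two-sided exact permutation tests and adjusted over 3 pairs, since the partner Cox4i2 was near 0. Levels between genes were compared as CPM per kb of exon. Alternatives were DESeq2 1.42.0, limma-voom (limma 3.58.1), other scalings and filters, offsets for length and GC content, a threshold of 0.01, another prior count and leaving out each library. The tests were checked on data with known changes.

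Members and gene lists were chosen with earlier results of these data known. Named genes were the catalytic core, the complex IV isoforms, the called gene with the largest rise and fall of each class, the 5 lowest p-values of each comparison, the highest level per length of each class, the genes removed by the filter and at most 2 called genes per comparison list. Other genes in the text (among them Ndufs3, Ndufs7, Ndufb2, Ndufaf4, Ndufaf7, Cox7c, Atp5g2 and Atp5g3) were chosen after their values were seen. The values of 1 gene that the naming rule gives are not reported here. Symbols with a RefSeq promoter window numbered 74 of 94.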

Additional observations from a re-analysis of the deposited data

Results flagged for a closer look

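A library was marked where its gap to the nearest other library of its group of 6 was too large a share of the group's range by Dixon's 95% critical value, which chance does in about 1 in 20 groups. Over the 89 genes this marked 53 of 178 groups, and 50 of the 53 were horse serum library 6, at the low end. Among the genes named by rule, its CPM were 37.8 for Ndufa1, 136 for Ndufa6, 198 for Ndufb9, 206 for Ndufs1, 209 for Ndufv1 and 71.4 for Ndufv3 in complex I, and 134 for Sdhb and 146 for Sdhd in complex II. In complex III they were 146 for Uqcr11, 166 for Uqcrc2 and 118 for Uqcrfs1. In complex IV they were 35.003 for Cox6a2, 173 for Cox6b1, 3.89 for Cox7a1, 134 for Cox7a2, 180 for Cox7a2l and 15.02 for Cox8b, and the sum of the 3 muscle isoforms was 53.9. In complex V they were 1018 for Atp5a1, 1714 for Atp5b and 194 for Atp5o. Among the remaining 3 groups were Ndufa5 in STEM library 11 and Ndufc1 in STEM library 8. Also marked was a sum of 139 CPM of the 3 muscle isoforms in STEM library 11, the lowest of its group.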

How the results depend on the processing

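With 12 libraries, the 8 rises became 13 with total counts, 17 with offsets for length and GC content and 5 at an adjusted p of 0.01, and the 3 falls became 1 without a filter on low counts and 1 at an adjusted p of 0.01. Leaving out 1 library gave 6 to 11 rises, 1 to 38 falls and medians of -0.07 to 0.01. The 38 falls arose without horse serum library 6, and 1 fall was left without horse serum libraries 1, 4 or 5 or STEM libraries 11 or 12. With 11 libraries, the 11 rises became 20 with total counts, 19 with the offsets and 6 at an adjusted p of 0.01, and the 38 falls became 22 with the offsets, where the median was -0.0197. Leaving out a further library gave 8 to 12 rises, 32 to 39 falls and medians of -0.09 to -0.06. The cause of these shifts was not tested. The isoform differences ranged from -0.38 to -0.0342 for Cox6a2 over Cox6a1, from -0.26 to 0.26 for Cox7a1 over Cox7a2 and from -0.33 to 0.0489 for Cox8b over Cox8a when 1 library was left out, and the lowest of each range was the value without horse serum library 6.

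Of the 11 genes called with 12 libraries, 7 (Atp5g1, Sdhb, Uqcrc1, Cyc1, Ndufa8, Ndufb10 and Ndufaf3) were called under all the alternatives run at an adjusted p of 0.05. Of the 49 called with 11 libraries, 27 were. No call of a named gene changed direction. Over the alternatives, 680 values of 34 named genes with 12 libraries included 17 lost and 14 gained calls, 12 of the gains without horse serum library 6, and 646 values with 11 libraries included 34 lost and 8 gained calls. Prior counts of 0.5 and 5 gave no call on the isoform ratios with 12 libraries, where none had been called. They were not tried on the ratios with 11 libraries, so they do not bear on the calls made there. The lowest count of a tested OXPHOS gene in any library was 63. No paired analysis was possible because the groups share no replicate number.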
